A study of Mus musculus with 16 samples.

Results

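The genes described here encode subunits of the phagocyte NADPH oxidase: Cybb, Cyba, Ncf1, Ncf4 and Rac2. A gene's regions were all rows of the 5 region tables, 1 table per histone mark, whose annotation named it with a distance to its start. The tables named 17885 genes in all, of which these are 5. Their regions numbered 122 of 114597 for H3K27ac, 55 of 60720 for H3K9ac, 37 of 43128 for H3K4me3, 36 of 114913 for H3K4me1 and 2 of 14721 for H3K27me3.

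The cells were mouse ER-Hoxb8 cells of strain C57BL/6, labelled as myeloid progenitors. They are a granulocyte-monocyte progenitor line kept immature by an estrogen-dependent Hoxb8, which all 3 lines carried. The lines stably expressed an empty vector, human wild-type ERG (WT-ERG), an ETS-family transcription factor, or the mutant P199L-ERG, which the study examined for its contact with the NCoR-HDAC3 co-repressor. Chromatin immunoprecipitation with sequencing (ChIP-seq) gave 1 library per mark and line, 15 in all, and the pooled IgG control was not analysed here. Both comparisons with the empty vector share its libraries. There were no replicates, so no difference between lines was tested. Square brackets hold 95% intervals made from the 2 libraries' read counts by the exact binomial method of Clopper and Pearson. They cover counting error only, not the spread between libraries. Reads without molecular identifiers are not independent molecules, so the intervals can be too narrow even for counting error. In such a bulk measurement, fewer marked cells and less mark per cell cannot be told apart.

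The phagocyte oxidase passes electrons from NADPH across a membrane to oxygen, which makes the superoxide that neutrophils use against microbes. Cybb encodes the catalytic chain gp91phox and Cyba its membrane partner p22phox. On activation cytosolic proteins, among them p47phox (Ncf1) and p40phox (Ncf4), and the GTPase Rac2 join them. Inherited loss of an oxidase subunit causes chronic granulomatous disease in people. H3K27ac and H3K9ac mark active promoters and enhancers, H3K4me3 active promoters, H3K4me1 enhancers and gene bodies near them, and H3K27me3 genes silenced by Polycomb.

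In mm10 (GRCm38), the GENCODE annotation placed Cybb at chrX:9435252-9487771, Cyba at chr8:122424776-122432930 and Ncf1 at chr5:134220053-134229625, all on the minus strand. Ncf4 lay on the plus strand at chr15:78244801-78262580 and Rac2 on the minus strand at chr15:78559167-78572783. The deposited assignment gave a region to a pair of neighbouring genes, so most regions also counted for another gene. These neighbours were chiefly Il17c and Mvd for Cyba, Gtf2ird2 and Gtf2i for Ncf1, Csf2rb2 and Pvalb for Ncf4, and Sstr3 and Cyth4 for Rac2. The label of the cells was checked against marker genes. All 9 granulocyte-monocyte progenitor markers had an H3K27ac region within 2 kb of their start, as did 5 of 6 late neutrophil, 5 of 6 monocyte and macrophage, 3 of 5 erythroid and megakaryocyte and 3 of 4 B lymphoid markers. None of the 4 T lymphoid, 3 endothelial and 3 epithelial or liver markers did. With H3K4me3 the numbers for these lists, in the order above, were 7, 6, 4, 3, 2, 0, 0 and 0. With H3K9ac they were 8, 4, 5, 3, 2, 1, 0 and 0. The progenitor markers without such a region were Mpo and Elane for H3K4me3 and Prtn3 for H3K9ac. Reads in regions ranged from 13980539 to 16230439 per H3K27ac library, 10268618 to 10992315 for H3K9ac, 19834069 to 22278560 for H3K4me3, 14508786 to 17144801 for H3K4me1 and 768125 to 980145 for H3K27me3.

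The promoter sequences of 3 of the 5 genes are given first, because ETS factors bind a GGAA core and because Cybb and the others differed in signal. They are 300-base RefSeq windows of GRCm38.p6 on the gene's strand, 5′ to 3′, from 250 bases before the start to 50 after it. The capitals mark each GGAA, or TTCC where the core lies on the other strand. The windows lie at chrX:9469275-9469574, chr8:122432891-122433190 and chr5:134229576-134229875, all on the minus strand.

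Cybb promoter: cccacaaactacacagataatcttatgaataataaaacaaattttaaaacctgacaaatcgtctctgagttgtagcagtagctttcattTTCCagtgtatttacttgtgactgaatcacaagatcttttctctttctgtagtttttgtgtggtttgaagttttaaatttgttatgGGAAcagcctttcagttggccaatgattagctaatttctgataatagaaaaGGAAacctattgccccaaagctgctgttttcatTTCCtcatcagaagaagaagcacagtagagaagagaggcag

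Cyba promoter: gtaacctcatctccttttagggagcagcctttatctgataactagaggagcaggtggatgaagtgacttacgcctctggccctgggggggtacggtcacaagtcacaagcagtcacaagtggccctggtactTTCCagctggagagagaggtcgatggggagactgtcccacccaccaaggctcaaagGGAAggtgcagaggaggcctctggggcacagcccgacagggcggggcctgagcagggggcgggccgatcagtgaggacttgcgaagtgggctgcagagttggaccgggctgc

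Ncf1 promoter: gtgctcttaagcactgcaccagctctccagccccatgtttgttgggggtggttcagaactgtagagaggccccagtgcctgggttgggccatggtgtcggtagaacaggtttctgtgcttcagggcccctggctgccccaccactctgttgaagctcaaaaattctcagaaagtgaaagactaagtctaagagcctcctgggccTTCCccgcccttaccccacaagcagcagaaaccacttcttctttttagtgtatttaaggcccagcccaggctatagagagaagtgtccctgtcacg

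The Cybb window was the poorest in GC bases of the 3, with 35.3% against 60.7% for Cyba and 54% for Ncf1. It held 4 GGAA cores on either strand, Cyba 2 and Ncf1 1, and the median over 32851 promoter windows was 3. A GGAA was present in 96.0% of those windows. The longer motif GAGGAA, which contains GGAA, was present in the Cybb window only, on the opposite strand 10 bases past the start, and in 28.3% of all windows. The ETS motif CCGGAA, which also contains GGAA, was in none of the 3 and in 14.9% of all windows. A match of letters is a description of the window.

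Regions where a line stood apart are shown next, read from mm10 on the plus strand with the same capitals. The Cybb H3K4me1 region (chrX:9461979-9462270) is the sole Cybb region of any mark. The windows for Ncf4 (chr15:78276138-78276437) and Rac2 (chr15:78574473-78574772) are the central 300 bases of the H3K27ac regions with the largest increase and largest decrease in WT-ERG at those genes. Here and below, a largest change was sought only among regions with enough signal. Their highest value over the lines reached the median of that value over all H3K27ac regions. Weaker regions could change by a larger ratio.

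Cybb H3K4me1 region: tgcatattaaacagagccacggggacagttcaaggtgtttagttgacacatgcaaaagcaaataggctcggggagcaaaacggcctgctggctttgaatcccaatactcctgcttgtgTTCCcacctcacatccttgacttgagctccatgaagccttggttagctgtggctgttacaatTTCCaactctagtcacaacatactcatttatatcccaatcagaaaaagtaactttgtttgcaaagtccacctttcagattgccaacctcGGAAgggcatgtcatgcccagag

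Ncf4 H3K27ac region: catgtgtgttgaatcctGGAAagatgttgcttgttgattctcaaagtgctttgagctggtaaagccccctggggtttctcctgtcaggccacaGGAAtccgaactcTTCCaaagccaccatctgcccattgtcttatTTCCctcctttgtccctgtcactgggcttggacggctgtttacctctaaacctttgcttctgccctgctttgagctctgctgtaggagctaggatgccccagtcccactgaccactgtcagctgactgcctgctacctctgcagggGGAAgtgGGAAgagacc

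Rac2 H3K27ac region: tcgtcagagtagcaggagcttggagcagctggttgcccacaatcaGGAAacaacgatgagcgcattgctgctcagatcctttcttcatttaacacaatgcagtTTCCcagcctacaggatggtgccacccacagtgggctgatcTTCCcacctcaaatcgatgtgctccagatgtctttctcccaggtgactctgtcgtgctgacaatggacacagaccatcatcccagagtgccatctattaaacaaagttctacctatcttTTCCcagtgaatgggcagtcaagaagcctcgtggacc

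The Ncf4 window held 6 GGAA cores, the Rac2 window 4 and the Cybb region 3. The median was 3 both over the central 300 bases of 60297 H3K27ac regions and over 292-base windows of 96430 H3K4me1 regions, of which 96.2% and 96.0% held at least 1. Neither GAGGAA nor CCGGAA was found in any of the 3 windows. GAGGAA was in 29.0% of the H3K27ac windows and 30.9% of the H3K4me1 windows, and CCGGAA in 7.95% and 4.02%.

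All values that follow are normalized reads, the authors' read count of a region times 1 factor per library, and sets of 3 values give the empty vector line first, WT-ERG next and P199L-ERG last. Differences are log2 ratios of these sums after a small pseudocount, and a gene or region counted as higher or lower when it passed 1.5-fold, which is 0.58 on the log2 scale. The GC content of regions moved with the P199L-ERG libraries. Over H3K27ac regions, split into 10 groups by GC content, the median log2 ratio of the P199L-ERG library to that of the empty vector went from 1.41 in the lowest group (median 41.9%) to -1.08 in the highest (median 62.4%). The H3K27ac regions of the 4 genes that had any averaged 52.7% to 55.9% GC. A GC-adjusted ratio is therefore given beside the others.

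Cybb, the gene of the catalytic chain, stood apart from its partners in all 3 lines. No region of H3K27ac, H3K9ac, H3K4me3 or H3K27me3 was assigned to it. The nearest regions of H3K27ac, H3K9ac and H3K4me3 lay 136 kb from its start on one side and 193 kb on the other. The X chromosome as a whole was covered in the active marks, with 1639 H3K27ac regions over 434 genes, 1054 H3K9ac, 883 H3K4me3 and 2177 H3K4me1 regions. For H3K27me3 it held only 39 of 14721 regions, the nearest 1262 and 11451 kb from the Cybb start. The lack of an H3K27me3 region thus says little about Cybb. The tables list only called regions, so no level of Cybb can be given for the marks without one.

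The single Cybb region was an H3K4me1 region of 292 bp, 7.2 kb past the transcript start at chrX:9469324, deposited as chrX:9461978-9462270. That start, which the promoter window above also uses, lies inside the longer gene span of GENCODE, and so does the region. It was called in the empty vector line alone. It is listed only through that call, so its lower values in the ERG lines are partly set by that choice. It held 18 reads in the empty vector line, 1 in WT-ERG and 6 in P199L-ERG, or 18.0, 1.15 and 5.59 normalized reads. The log2 ratio was -2.03 [-9.34, -1.30] for WT-ERG and -1.17 [-3.31, -0.29] in P199L-ERG, both set against the empty vector, and -2.54 and -1.43 after GC adjustment. P199L-ERG relative to WT-ERG was at 0.86 [-0.77, 7.80]. These ratios rest on few reads.

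**Figure D1:**
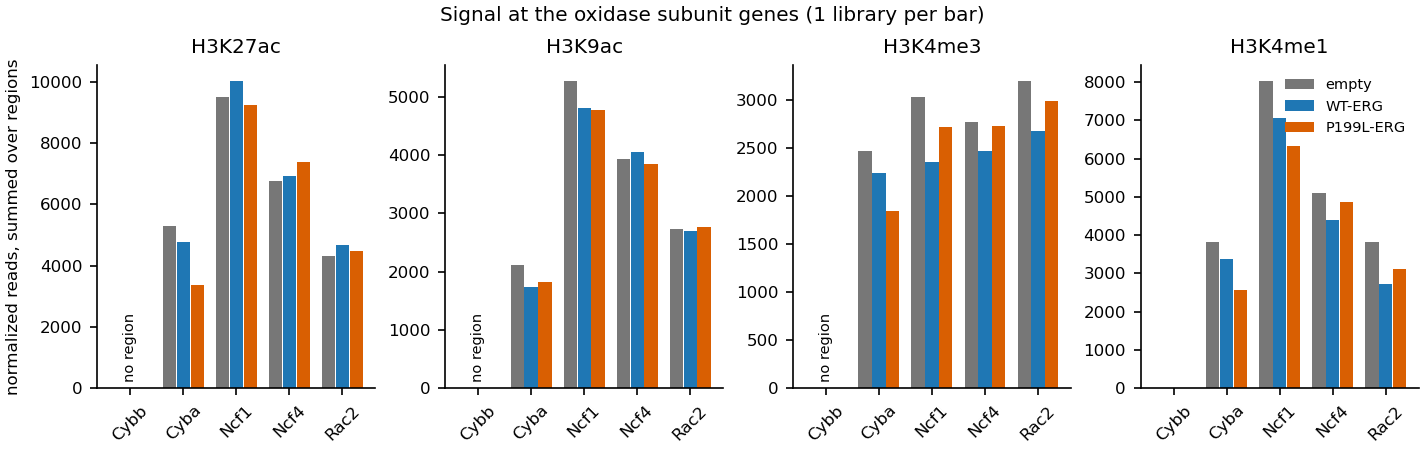
Normalized reads summed over all regions of each gene (y axis, from 0) for 4 marks, with 1 bar per library (grey for the empty vector, blue for WT-ERG, orange for P199L-ERG). Cybb has no region in 3 of the marks and 1.15 to 18.0 normalized reads of H3K4me1, too low to show on this axis, while the other genes run from 1734 to 10031.

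Cyba, the membrane partner of the catalytic chain, carried all 4 active marks in every line. Its 12 H3K27ac regions summed to 5286, 4767 and 3363 normalized reads. The P199L-ERG library was the lowest. Per kb of region Cyba had the highest H3K27ac level of the subunit genes in the empty vector and WT-ERG lines, 378 and 340 normalized reads per kb. In P199L-ERG it had 240, below Ncf4 at 287. Its level placed it at the 80.2, 80.1 and 83.2 percentile of the 15478 genes with an H3K27ac region, so its rank was not lower in P199L-ERG than in the other lines.

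The log2 ratio of Cyba H3K27ac was -0.15 [-0.21, -0.09] for WT-ERG and -0.65 [-0.72, -0.59] for P199L-ERG, each relative to the empty vector. Cyba was the only subunit gene past 1.5-fold in H3K27ac between P199L-ERG and the empty vector, 1 lower and 0 higher of 4. The background was 39.5% of genes lower and 10.3% higher. After GC adjustment its ratio was 0.16 and the background 8.13% lower and 7.22% higher, and with libraries scaled by total reads in regions it was -0.22. The lower call was thus lost under either other scaling. Ncf4 and Rac2, at 0.72 and 0.63, were the 2 genes of 4 higher after GC adjustment. With libraries scaled by total reads they were at 0.55 and 0.48, within 1.5-fold, as they were on the deposited scale. Against WT-ERG the P199L-ERG ratio of Cyba was -0.50, and 0.21 after GC adjustment.

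At Cyba the signal sat in a 5.19 kb region over the promoter (chr8:122429318-122434503), which held 3555, 3059 and 2339 normalized reads. A second large region, 5.38 kb before the start and within the neighbouring gene Mvd, held 1418, 1317 and 771. Its P199L-ERG ratio of -0.88 became 0.10 after GC adjustment. Weak regions moved apart from these. The one 8.50 kb before the start held 28.7, 50.4 and 30.6 normalized reads, a log2 ratio of 0.77 in WT-ERG, and the one 8.52 kb past the start held 31.0, 41.1 and 15.3.

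The other marks at Cyba repeated the order of lines in part on the deposited scale. H3K4me3 summed to 2465, 2244 and 1846 over 6 regions, H3K9ac to 2107, 1734 and 1818 over 8, and H3K4me1 to 3821, 3370 and 2575 over 2. The empty vector library was the highest in each on that scale. After GC adjustment the WT-ERG ratios to the empty vector were -0.12 for H3K4me3, -0.07 for H3K9ac and 0.06 for H3K4me1. That of P199L-ERG H3K9ac was 0.05. One of the H3K4me1 regions was 17.3 kb long and spanned the gene and its neighbour, at 3739, 3295 and 2522. Per kb, Cyba H3K4me1 was among the highest of all genes, at the 99.7, 99.3 and 98.9 percentile. The P199L-ERG ratio of its H3K4me1 was -0.57 [-0.64, -0.50], within 1.5-fold, at the 3.33 percentile of all genes, and -0.28 after GC adjustment. That of H3K4me3 was -0.42, and 0.00 after adjustment.

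Ncf1 encodes the organizer that brings the cytosolic subunits to the membrane, and it had the most regions of the 5 genes in H3K27ac, H3K4me3 and H3K4me1, and the largest sum of H3K27ac, H3K9ac and H3K4me1. Its 63 H3K27ac regions summed to 9505, 10031 and 9230 normalized reads. Per kb the level was 200, 211 and 194, the lowest of the 4 genes with this mark, since its regions covered 47.5 kb. The ratio was 0.08 [0.04, 0.12] for WT-ERG and -0.04 for P199L-ERG, or 0.12 and 0.35 after GC adjustment. In H3K27ac, 0 of 4 genes were higher and 0 lower in WT-ERG than in the empty vector, against a background of 5.25% higher and 4.33% lower.

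Most of this signal, 56.7%, lay in 1 region of 13.7 kb (chr5:134226068-134239778), the 8th longest of the 114597 H3K27ac regions. It ran from the Ncf1 promoter to the 3′ end of Gtf2i and held 5153, 5643 and 5526 normalized reads. H3K9ac formed a 10.8 kb region there, with 2997, 2917 and 3006. Both acetylation marks over the promoter thus stayed within 1.5-fold in every pair of lines on the deposited scale. After GC adjustment the H3K27ac region was past it in P199L-ERG, at 0.63 over the empty vector.

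H3K4me3 at the Ncf1 promoter was lower with WT-ERG than in the other lines, within 1.5-fold. Summed over 12 regions it was 3025, 2355 and 2717 normalized reads, and the 5.8 kb promoter region held 2624, 1963 and 2290. The summed ratio for WT-ERG was -0.36 [-0.44, -0.28], and -0.35 after GC adjustment, at the 4.17 percentile of all genes with a median of -0.02. As deposited, P199L-ERG lay between the other lines, at -0.15 relative to the empty vector and 0.21 relative to WT-ERG. After GC adjustment it was the highest, at 0.18 and 0.52. All 4 subunit genes had a WT-ERG ratio of H3K4me3 below 0, with Rac2 at -0.26, Ncf4 at -0.17 and Cyba at -0.13. None passed 1.5-fold, with 0 higher and 0 lower of 4, against a background of 2.69% higher and 1.82% lower.

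Away from the promoter, the Ncf1 locus differed by region. A region 7.63 kb past the start, inside the gene, held 123, 122 and 35.4 normalized reads of H3K27ac. Its P199L-ERG ratio of -1.73 [-2.38, -1.24] was the largest decrease named there, and was -0.49 after GC adjustment. The largest increase in WT-ERG lay 23.9 kb before the start, at 36.8, 64.8 and 46.9 normalized reads (0.78), and the largest decrease 16.4 kb past it, at 37.9, 20.6 and 49.8 (-0.82). The largest increase in P199L-ERG, at 29.97 kb before the start, held 36.8, 36.0 and 69.9 normalized reads, and its ratio of 0.89 was 0.06 after GC adjustment.

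The summed H3K9ac of Ncf1, 5274, 4812 and 4773 over 17 regions, was highest in the empty vector. Within 10 kb of the start it was 3283, 3171 and 3266. A region 84.1 kb before the start, at Gtf2i, held 1615, 1226 and 1118 and carried most of the difference. Its ratios of -0.40 and -0.53 were -0.08 and -0.13 after GC adjustment. H3K4me1 over 15 regions summed to 8037, 7049 and 6337, and within 10 kb of the start to 2407, 1649 and 1867. The WT-ERG ratio within 10 kb was -0.54, and -0.30 after GC adjustment.

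Ncf4 encodes p40phox, which binds a membrane lipid of phagosomes and sustains the active complex. Its sum combined a promoter that was close in the 3 lines with distal regions that were not. The 29 H3K27ac regions summed to 6766, 6938 and 7373 normalized reads, or 264, 270 and 287 per kb. The ratio was 0.04 [-0.01, 0.09] for WT-ERG and 0.12 [0.07, 0.17] for P199L-ERG, and 0.14 and 0.72 after GC adjustment. The promoter region of 10.0 kb (chr15:78242307-78252335), the 50th longest of its mark, held 5208, 4963 and 4933. Its ratios were -0.07 and -0.08 against the empty vector, though GC adjustment put P199L-ERG at 0.73.

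Beyond 10 kb past the start, a limit chosen after the values were seen, 25 H3K27ac regions covered the 3′ part of Ncf4 and the interval toward Csf2rb2, a beta chain of cytokine receptors. They summed to 1265, 1661 and 2251 normalized reads. The empty vector was the lowest and P199L-ERG the highest. The ratio was 0.39 [0.28, 0.50] for WT-ERG and 0.83 [0.73, 0.94] for P199L-ERG, and GC adjustment left them at 0.43 and 0.86. P199L-ERG exceeded WT-ERG by 0.44, and by 0.42 after adjustment. On the deposited scale most of this excess in reads lay in the region 13.3 kb past the start. Within 10 kb of the start the 4 regions summed to 5501, 5277 and 5122, with ratios of -0.06 and -0.10, or 0.05 and 0.68 after GC adjustment. Near and distal regions thus stood apart on both scales for WT-ERG, while for P199L-ERG they were closer after adjustment, at 0.68 and 0.86.

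More of these distal regions were called as peaks in the ERG lines. The authors' caller marked 12 of the 25 in the empty vector, 17 in WT-ERG and 22 in P199L-ERG, beside 61.1%, 68.3% and 68.4% of all H3K27ac regions. A region not called in the empty vector entered the table through an ERG line, so its higher value there is partly set by that choice. Of the 29 Ncf4 regions, 15 were higher and 1 lower in WT-ERG than in the empty vector, where 17.7% of all H3K27ac regions were higher and 16.6% lower. In P199L-ERG 18 were higher and 3 lower, against 31.8% and 29.6%. After GC adjustment the counts were 16 and 1 for WT-ERG, against 15.9% and 15.6% of regions, then 19 and 1 for P199L-ERG, against 21% and 20.8%.

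The same direction was seen in H3K9ac, a separate immunoprecipitation. The 14 H3K9ac regions more than 10 kb past the start summed to 595, 836 and 768 normalized reads. The ratio was 0.49 [0.34, 0.65] for WT-ERG and 0.37 [0.21, 0.53] for P199L-ERG, and 0.48 and 0.32 after GC adjustment. The empty vector had 6 of them called, and each ERG line 12, beside 74.8%, 76.0% and 76.9% of all H3K9ac regions. As for H3K27ac, a region not called in the empty vector entered through an ERG line. Its higher value there is partly set by that choice. Of all 20 Ncf4 H3K9ac regions, 8 were higher and 0 lower in WT-ERG, where 13.8% of regions were higher and 9.99% lower, and 5 were higher and 0 lower in P199L-ERG, against 14.8% and 10.5%. The order of the ERG lines was the reverse of that in H3K27ac. The methylation marks over the same stretch were closer, with H3K4me1 at 2974, 2732 and 3180 over 8 regions and H3K4me3 at 145, 126 and 159 over 6.

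**Figure D2:**
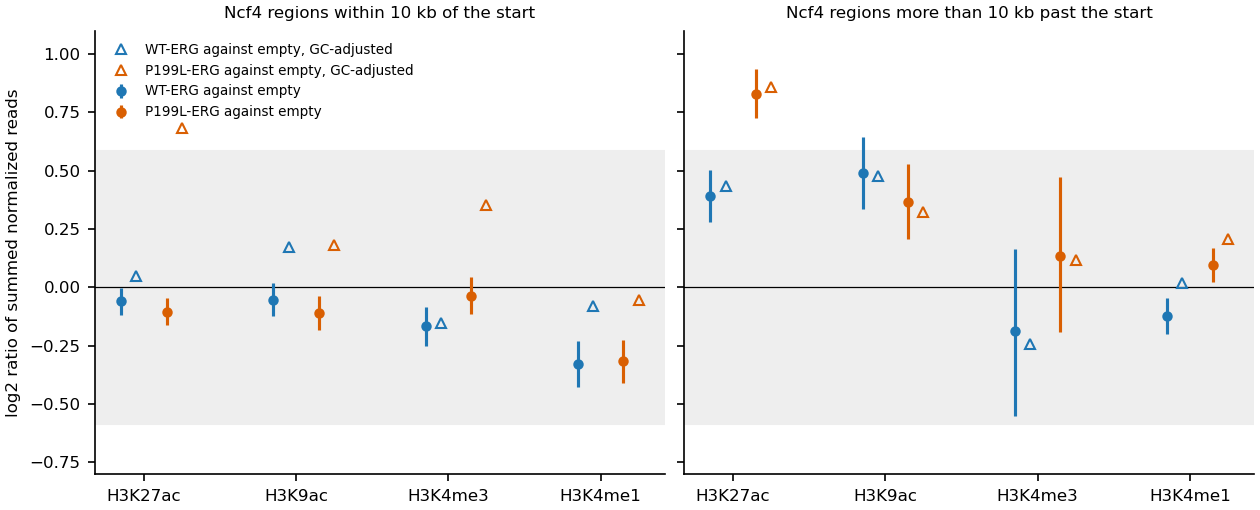
Log2 ratio of summed normalized reads (y axis) of WT-ERG and P199L-ERG against the empty vector for Ncf4 regions within 10 kb of the start and more than 10 kb past it, by mark. Filled points carry 95% counting intervals, triangles are GC-adjusted, and the grey band is 1.5-fold: H3K27ac past 10 kb reads 0.39 and 0.83 and H3K9ac 0.49 and 0.37, while within 10 kb the unadjusted acetylation ratios run from -0.11 to -0.05.

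The distal regions differed among themselves. The region whose sequence is given above, 31.5 kb past the start of Ncf4 and short of the 3′ end of Csf2rb2, held 4, 33 and 35 reads, or 4.60, 33.9 and 33.5 normalized reads of H3K27ac. It was called in both ERG lines and not in the empty vector. Its log2 ratio was 2.41 [1.39, 4.84] for WT-ERG and 2.40 [1.38, 4.82] for P199L-ERG, and GC adjustment gave 2.49 and 2.38. An H3K9ac region overlapping it held 6.39, 15.2 and 17.9, with ratios of 0.94 [-0.17, 2.90] and 1.13 [0.09, 3.11].

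Other distal regions had more reads and smaller ratios. The one 22.8 kb past the start held 52.9, 112 and 114 normalized reads of H3K27ac and 29.8, 47.6 and 49.6 of H3K9ac. The one at 34.1 kb held 63.2, 128 and 104 of H3K27ac. A region 13.3 kb past the start, within the gene, was high in P199L-ERG alone, at 557, 607 and 1026, a ratio of 0.12 for WT-ERG and 0.88 for P199L-ERG. It was not so in H3K9ac, at 294, 386 and 349. The largest decrease lay 4.23 kb before the start, at 79.3, 61.7 and 38.3.

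**Figure D3:**
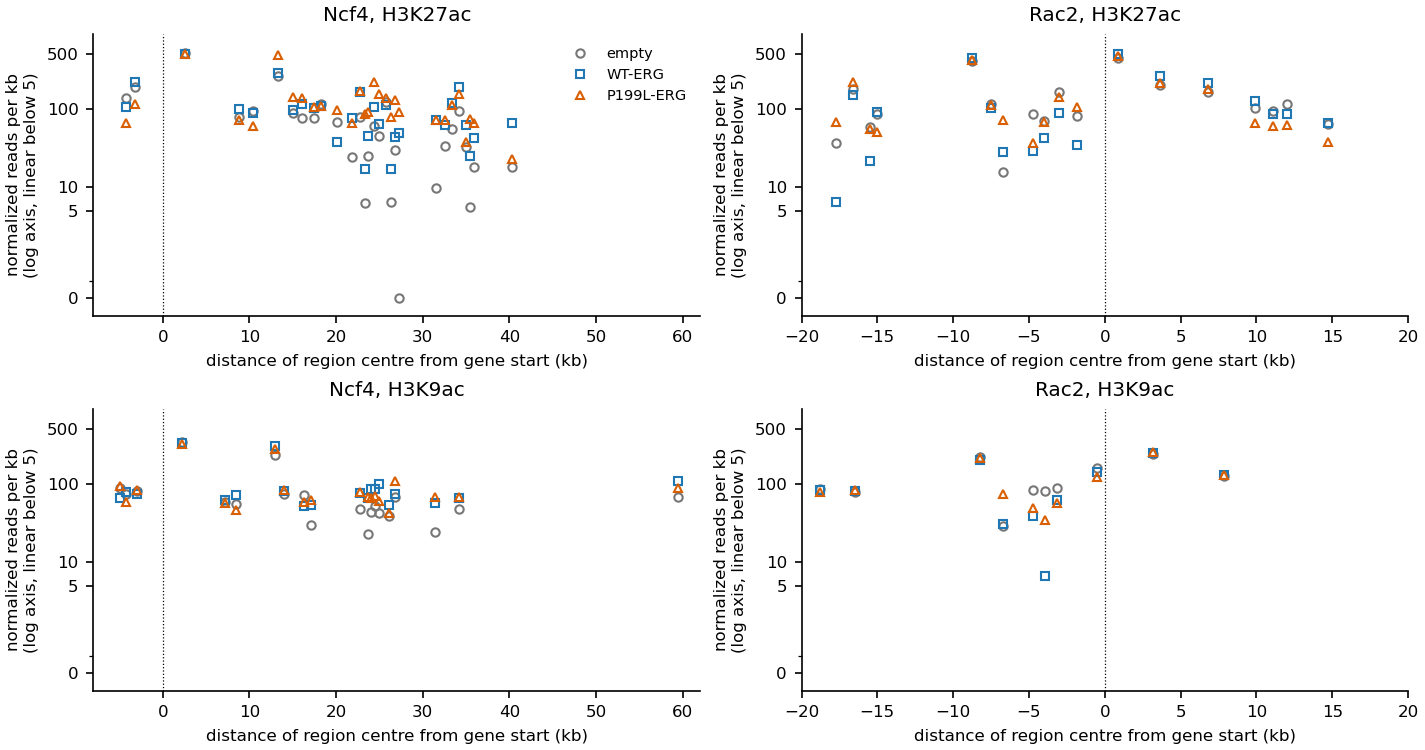
Normalized reads per kb (y axis, log scale, linear below 5) of every H3K27ac and H3K9ac region of Ncf4 and Rac2 against the distance of its centre from the gene start (x axis, kb), 1 point per library. Past 10 kb of Ncf4 most empty vector circles lie under the ERG symbols, as in the H3K27ac region with 4.60, 33.9 and 33.5 normalized reads, and before the Rac2 start several WT-ERG squares lie under the empty vector circles.

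Nearly all of this signal cannot be given to Ncf4 alone: 97.3% of its H3K27ac lay in regions also assigned to another gene, chiefly Csf2rb2. Ncf4 was also the sole subunit gene with H3K27me3. Its 2 regions, 19.5 and 8.84 kb before the start on the side of Pvalb, were called in WT-ERG alone. Of all H3K27me3 regions, 49.2% were called in the empty vector, 78.2% in WT-ERG and 27.7% in P199L-ERG. The 2 Ncf4 regions held 31.7, 30.8 and 38.7 normalized reads in all, so the 3 lines were close despite the call. The ratios were -0.04 for WT-ERG and 0.27 [-0.43, 1.00] for P199L-ERG. In the summed H3K9ac of Ncf4, 3925, 4046 and 3853 over 20 regions, its H3K4me3, 2771, 2466 and 2724 over 11, and its H3K4me1, 5090, 4397 and 4868 over 12, no pair of lines passed 1.5-fold.

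Rac2 encodes the GTPase that completes the active complex in blood cells. Its 18 H3K27ac regions summed to 4324, 4677 and 4484 normalized reads, or 221, 239 and 229 per kb. The ratio was 0.11 [0.05, 0.18] for WT-ERG and 0.05 for P199L-ERG, and 0.19 and 0.63 after GC adjustment. The promoter region held 1787, 1984 and 1872, and a region in the gene body 6.81 kb past the start held 765, 1007 and 835. These were the main regions, and WT-ERG was the highest in both on the deposited scale. After GC adjustment P199L-ERG was the highest in both, at 0.87 and 0.93 over the empty vector, with WT-ERG at 0.28 and 0.52.

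Upstream of Rac2, WT-ERG was instead below the empty vector in several regions. The H3K27ac region 1.84 kb before the start (chr15:78574373-78574872), whose central sequence is given above, held 35, 17 and 55 reads, or 40.2, 17.5 and 52.6 normalized reads. It was called in the empty vector and P199L-ERG, not in WT-ERG. The ratio was -1.11 [-2.13, -0.33] for WT-ERG, -0.93 after GC adjustment, and 0.37 for P199L-ERG. The region 3.03 kb before the start held 200, 106 and 171, a WT-ERG ratio of -0.90 [-1.28, -0.56], or -0.73 after adjustment, where P199L-ERG was at -0.73 as well. Weaker regions 3.99 and 4.75 kb before the start held 36.8, 22.6 and 36.4, and 24.1, 8.23 and 10.5.

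In WT-ERG 6 of 18 Rac2 H3K27ac regions were lower than in the empty vector and 0 higher, beside 16.6% and 17.7% of all regions. After GC adjustment 5 were lower and 0 higher, against 15.6% and 15.9%. In P199L-ERG 6 were also lower and 2 higher, against 29.6% and 31.8%, and 3 and 3 after adjustment, against 20.8% and 21%. H3K9ac over the upstream stretch named above was also lower in WT-ERG than in the empty vector. At 3.13 kb before the start it was 109, 78.1 and 71.4 normalized reads, at 3.97 kb it was 11.7, 0.952 and 4.96, from 11, 1 and 5 reads, and at 4.75 kb it was 20.2, 9.52 and 11.9. The P199L-ERG values were below the empty vector at all 3 of these H3K9ac regions. Summed over 10 regions, Rac2 H3K9ac was 2733, 2691 and 2770. Within 10 kb of the start 10, 8 and 10 of 11 H3K27ac regions were called, and 7, 5 and 6 of 8 for H3K9ac. Over all regions 61.1%, 68.3% and 68.4% were called for H3K27ac, and 74.8%, 76.0% and 76.9% for H3K9ac. A region not called in WT-ERG entered through another line, so its lower value in WT-ERG is partly set by that choice.

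The methylation marks of Rac2 were lowest in WT-ERG. H3K4me3 at the promoter region held 2058, 1604 and 1957 normalized reads, a ratio of -0.36 [-0.46, -0.26] for WT-ERG and -0.07 for P199L-ERG. Summed over 8 regions it was 3200, 2678 and 2988. H3K4me1 summed to 3818, 2736 and 3127 over 6 regions, a WT-ERG ratio of -0.48 [-0.56, -0.41], at the 6.00 percentile of all genes and -0.27 after GC adjustment. A 10.6 kb region over the gene body passed 1.5-fold, at 2305, 1422 and 1855 (-0.70 [-0.80, -0.60]), though not after adjustment (-0.46). The H3K4me1 region 2.45 kb before the start, over the stretch where acetylation was lower, held 647, 641 and 572.

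**Figure D4:**
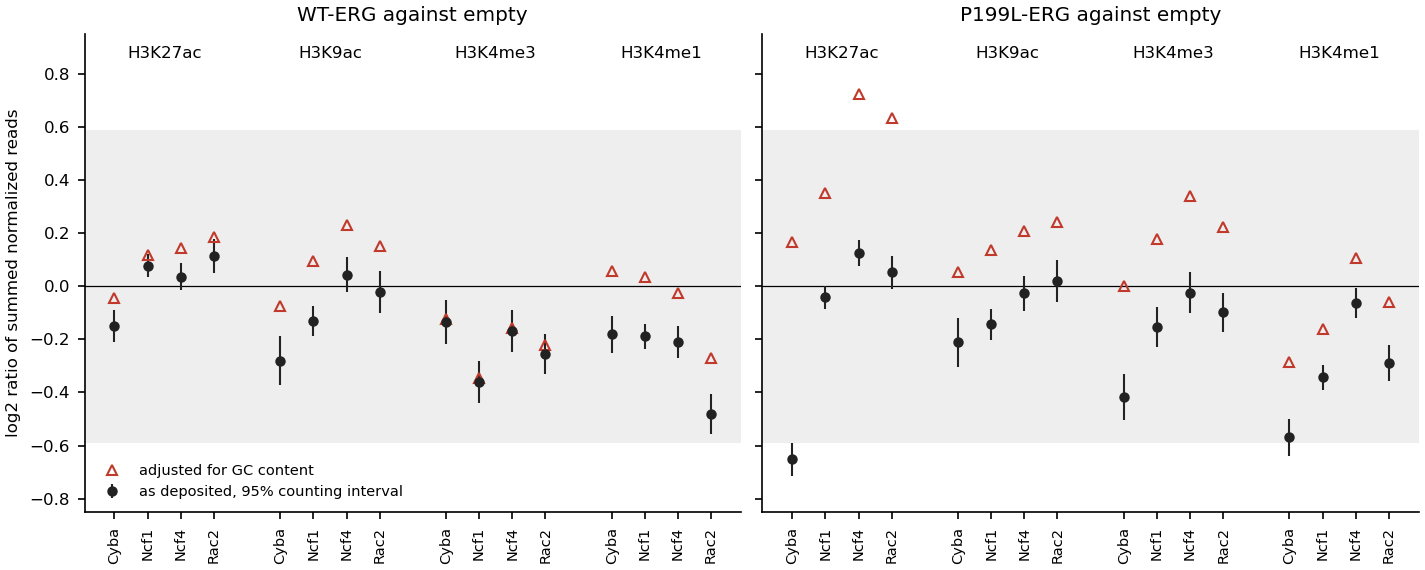
Log2 ratio of summed normalized reads (y axis) of WT-ERG and of P199L-ERG against the empty vector for Cyba, Ncf1, Ncf4 and Rac2 in 4 marks, with filled points and 95% counting intervals as deposited, triangles adjusted for GC content, and a grey band for 1.5-fold. Cyba H3K27ac in P199L-ERG, at -0.65, is the sole filled point outside the band, and its triangle is at 0.16, while those of Ncf4 and Rac2 are at 0.72 and 0.63.

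Across the genes, few sums passed 1.5-fold, and those that did depended on reads or on scale. In H3K27ac between P199L-ERG and WT-ERG 0 of 4 genes were higher and 0 lower, against 11.3% and 35.3% of genes. In H3K9ac 0 of 4 passed in either direction in any pair. The backgrounds were 3.38% higher and 2.91% lower for WT-ERG against the empty vector, 2.77% and 4.29% for P199L-ERG against it, and 0.971% and 1.44% between the ERG lines. In H3K4me3 0 of 4 passed for P199L-ERG, against 5.57% higher and 5.2% lower relative to the empty vector and 5.43% and 7.6% relative to WT-ERG.

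In H3K4me1 Cybb was the only one of the 5 past 1.5-fold in each pair. It was 1 of 5 lower in WT-ERG than in the empty vector, where 11.2% of genes were higher and 3.56% lower. It was 1 of 5 lower in P199L-ERG, against 2.69% higher and 3.01% lower, and 1 of 5 higher when P199L-ERG was set against WT-ERG, beside 1.9% higher and 9.51% lower. With so few reads at its region, and shares of this size over all genes, these counts show nothing particular to the list.

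**Figure D5:**
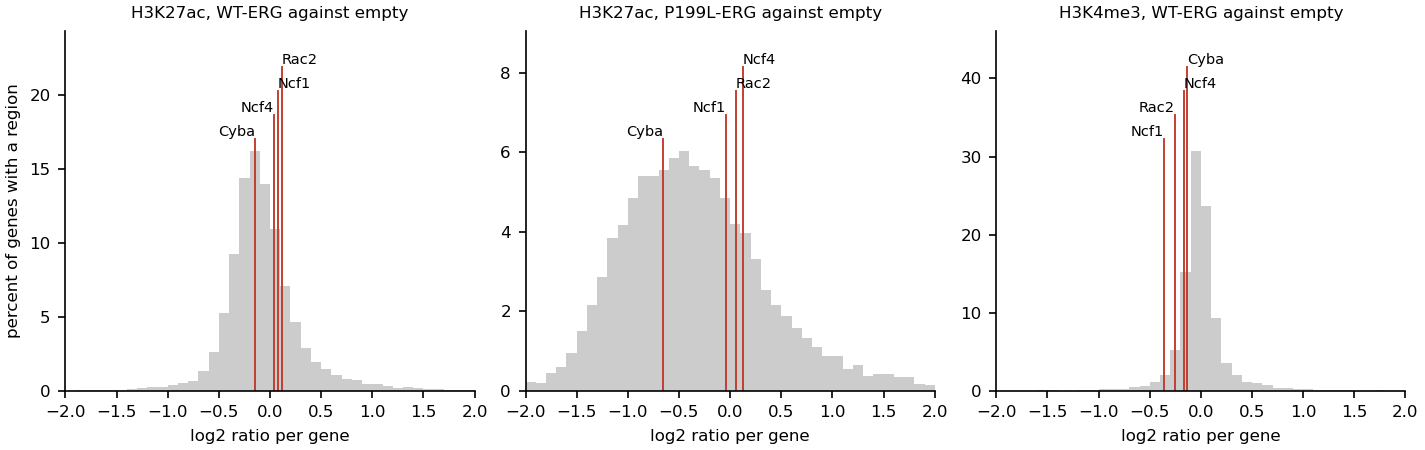
Distribution of the log2 ratio per gene (x axis) over all genes with a region (y axis, percent of genes) for H3K27ac and H3K4me3, with red lines at Cyba, Ncf1, Ncf4 and Rac2 (line height has no meaning). In H3K4me3 of WT-ERG the 4 lines run from -0.36 to -0.13, left of the median of -0.02, and in H3K27ac of P199L-ERG Cyba is at -0.65 with the median at -0.41.

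The levels per kb followed different orders by mark. For H3K4me3 the order in the empty vector was Cyba (431 normalized reads per kb), Ncf4 (327), Ncf1 (293) and Rac2 (265). In WT-ERG it was Cyba (393), Ncf4 (291), Ncf1 (228) and Rac2 (222). For H3K4me1 Cyba and Rac2 came first in every line, at 198 and 163 in the empty vector, 175 and 117 with WT-ERG, then 133 and 134 with P199L-ERG, where they were too close to order. Ncf1 and Ncf4 followed at 113 and 101 in the empty vector.

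Other genes of the oxidase pathway were counted from a list of 41, of which 38 had an H3K27ac region. In WT-ERG 1 gene of the list was higher and 0 lower than in the empty vector, beside 5.25% and 4.33% of all genes. The median ratio was -0.11, as over all genes. The higher gene was Noxa1, the activator of the related oxidase NOX1 in epithelia, at 499.8, 1016 and 882 normalized reads. Its ratio was 1.02 [0.86, 1.19] for WT-ERG and 0.82 for P199L-ERG. GC adjustment gave 0.94 and 1.09. Its H3K9ac, 222, 349 and 313, was also higher in WT-ERG, at 0.64. Nox1, Nox3 and Nox4, the catalytic chains of related oxidases, had no H3K27ac region.

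In P199L-ERG 1 gene of the list, Noxa1, was higher than in the empty vector and 11 lower of 38, beside 10.3% higher and 39.5% lower over all genes, with a median of -0.31 against -0.41. The 11 were Duox1 and Noxo1, which belong to related oxidases, Rac1 and Arhgdia of the Rac cycle, the kinases Prkca and Pak2, the antioxidant genes Sod1, Sod2, Cat and Prdx1, and Keap1, a sensor of oxidants, with ratios from -1.35 to -0.63. After GC adjustment 0 of the list were lower. Between P199L-ERG and WT-ERG, 2 were higher (Vav3, a Rac exchange factor, at 0.65, and Pik3cg, a lipid kinase, at 0.67) and 9 lower, the same genes without Rac1 and Keap1, from -1.17 to -0.59, beside 11.3% and 35.3% of all genes. After adjustment 0 of the list passed in either direction, against 3.23% of genes higher and 3.95% lower. In H3K9ac, 2 of 38 listed genes were higher in WT-ERG than in the empty vector and 0 lower, beside 3.38% and 2.91% of all genes. They were Noxa1 and Duox2, the latter a related oxidase with 2.13, 13.3 and 8.93 normalized reads. For P199L-ERG 1 was higher (Duox2) and 2 lower (Noxo1 at -0.62 and Prkca at -0.64), beside 2.77% and 4.29%.

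Likeness of pattern was measured by Pearson's correlation over 12 values, the log2 sums of 4 marks in 3 lines, each mark centred on its mean, among 7681 genes. The values share libraries and depth, and the coefficients are a description. The most alike genes were Ppp1r13l and Prrt4 for Cyba (both 0.98), Tspoap1 (0.93) and Ticam1 (0.92) for Ncf1, Tmem40 and Atp5k for Ncf4 (both 0.92), and Ascc2 (0.95) and Lcn2 (0.94) for Rac2. Among the subunit genes, Ncf4 and Rac2 were most alike (0.81), followed by Ncf1 and Rac2 (0.69) and Cyba and Ncf1 (0.58), while Cyba and Ncf4 were least alike (-0.27).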

How the data were processed

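ChIP-seq was done for 5 histone marks in 3 lines of mouse ER-Hoxb8 cells. According to the labels and methods, Cutadapt removed adapters, reads under 30 nt were dropped, and Bowtie aligned the rest to mm10. Peaks came from MACS2, were merged over the lines of each mark, and were given genes by GREAT. The deposited tables hold, for every region and library, the authors' read count, their normalized signal and whether a peak was called (1) or not (0). The signal equals the count times 1 factor per library. The basis of that factor and the treatment of duplicates are not given in the sources used here.

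Normalized reads were summed over the regions of each gene. Ratios are log2 after a pseudocount, 10% of the median normalized reads of that mark's table. GC adjustment centred each library's deviation within bins of GC content (20) and of signal (10). The scripts (Python 3.11.15, NumPy 2.4.6, pandas 2.3.3, SciPy 1.17.1, Matplotlib 3.10.9) were tested on simulated data.

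The genes, lists and rules were chosen with earlier results of these data known. Named were all 5 genes, their promoter regions, the strongest H3K27ac region and the one with the largest increase and decrease in each ERG line. Largest changes were sought where the highest value over the lines reached its median over all H3K27ac regions. Also named were listed pathway genes past 1.5-fold in H3K27ac or H3K9ac, and the 2 genes most alike in pattern. Other regions and the 10 kb limit were chosen after their values were seen. Alternatives were other pseudocounts, total-read scaling, GC adjustment, a 2-fold threshold and subsets of regions.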

Additional observations from a re-analysis of the deposited data

How the results depend on the processing

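The Cyba H3K27ac ratio in P199L-ERG against the empty vector, -0.65, changed sign to 0.16 after GC adjustment. In that comparison the count of subunit genes lower went from 1 to 0 under total-read scaling, GC adjustment and a 2-fold threshold, and to 2 with regions of no other gene. The count higher went from 0 to 2 after GC adjustment. Between P199L-ERG and WT-ERG the count lower in H3K27ac went from 0 to 2 with regions of no other gene. The H3K4me1 counts of 1 rest on Cybb. They went to 0 in all 3 pairs without the lowest 25% of signal, with regions of no other gene, within 2 kb, or called in 2 or more libraries, in both P199L-ERG pairs with a pseudocount of 50% of the median, and in P199L-ERG against WT-ERG at 2-fold. Of 54 ratios of subunit genes, 19 changed sign after GC adjustment, 13 under total-read scaling, 20 of 48 with regions of no other gene and 0 with other pseudocounts. No paired analysis was possible because each mark and line had 1 library. That, and the sharing of regions with neighbouring genes, limits every value.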
